A study of Homo sapiens with 14 samples.

Results

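Circular RNAs (circRNAs) of the cytosol of HepG2 cells, a human liver cancer line, were set against those of the nucleus of the same line. The circRNAs described here are all entries of the cytosol table or the nucleus table, joined where chromosome, start and end were identical, which gave 5667 circRNAs of the 11227 in the 6 tables of the series. There were 5105 in the cytosol table and 1302 in that of the nucleus, and 740 stood in both. Each fraction had 2 libraries of total RNA depleted of ribosomal RNA, and the labels name no treatment, genotype or time for either. They do not say how the fractions were separated or whether the 2 samples came from separate cultures, so the p-values measure a spread between libraries that may be technical. The tables hold no linear RNA, so the purity of the nuclei and of the cytosol could not be checked against marker transcripts.

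A circRNA forms when a downstream splice donor is joined back to an upstream splice acceptor, which closes the exons between them into a ring without free ends. Reads across that back-splice junction are what the tables count. CircRNAs are made in the nucleus, and most exonic ones are known to gather in the cytoplasm, where the lack of ends protects them from exonucleases, while circRNAs that keep an intron are known to stay in the nucleus.

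The 5′ end of a circRNA should lie directly behind a splice acceptor, whose last bases are AG. This could be read from sequence for 41 entries of the cytosol or nucleus table. They are those whose 5′ end fell inside a RefSeq promoter window of their own host gene (GRCh38.p14). Each window ran from 250 bases before to 50 after an annotated start, which need not be the gene's first base. The start used for NAB1 was not its first base, as another NAB1 circRNA began upstream, at 190655977 against 190659158. These 41 entries came from 27 hosts and 27 sites, and all 41 had AG directly before their first base on the host's strand. CircRNA callers commonly place junctions at splice signals, so the AG describes the entries and does not support them, and 20 of the 41 rested on 1 caller. In 5 of these sites the 30 bases below run from 20 before to 10 from the first base of the circRNA, on the host strand, and the capitals mark the AG. They are shown as examples of acceptors whose circRNAs were listed in both tables, in cytosol alone of the pair, or in part of each.
POLD1 chr19:50398831-50398860 (+): agctccaacttgcccagcAGgatggatggc
NAB1 chr2:190659138-190659167 (+): tttttttttttttttggcAGgttaaaccca
DYRK1A chr21:37420279-37420308 (+): atctgtttttcttcacacAGtgttatagtt
EIF4G3 chr1:21111374-21111403 (-): attttgctaattctttccAGcaatcccaca
ZMYND11 chr10:179974-180003 (+): gtttttgtttattactgcAGctaaagaagt

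The circRNA behind the first site comes from POLD1, the catalytic subunit of DNA polymerase delta, and had 11 and 8 reads in the nuclear libraries against 7 and 3 in the cytosolic ones. NAB1, a transcriptional corepressor, gave 22 and 27 reads in cytosol from its site and was not listed in the nucleus. At the acceptor of DYRK1A, a protein kinase, 4 circRNAs with different 3′ ends began. The shortest stood in both tables, with 12 and 15 cytosolic and 2 and 3 nuclear reads, and the other 3 stood in the cytosol table alone of the pair. The 3 circRNAs at the site of EIF4G3, a translation initiation factor, were listed in cytosol and not in the nucleus. Of the 3 at the site of ZMYND11, a reader of histone methylation, the one ending at 249088 was listed in cytosol only of the pair, while the other two stood in both tables. CircRNAs from 1 acceptor thus differed in where they were listed, but several had few reads. The ZMYND11 circRNA listed in cytosol only had 3 and 2 reads there. The DYRK1A circRNAs ending at 37425781 and 37456308 had 5 and 4 reads each, and that ending at 37472880 had 28 and 30. Whether read depth accounts for the difference in listing was not tested.

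CircRNA reads made up a far larger part of the cytosolic libraries than of the nuclear ones. Levels are given in RPTM, reads per 10000000 library reads, where the library totals are those implied by the deposited values. The sources used here do not say which reads those totals count. RPTM counts junction reads and is not divided by length, so it orders junctions rather than transcripts. Summed circRNA reads reached 6430 and 5711 RPTM in cytosol and 889 and 918 in the nucleus, which is 6071 ± 508 against 904 ± 20.9 (mean ± SD, n = 2) and a ratio of 6.72. The groups did not overlap, but an exact two-sided permutation test with 2 libraries a side cannot go below p = 0.333, the value it gave. In reads, the cytosolic libraries held 60701 and 59472 and the nuclear ones 7727 and 7235, so nuclear values carry more counting error. Within a fraction the libraries differed by more than sampling noise, with a chi-square of 2.67 per degree of freedom in cytosol and 1.47 in the nucleus over circRNAs with at least 20 reads.

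The cytosol catalogue held most of the nuclear one. Of the 1302 nuclear entries, 740 (56.8%, Wilson 95% interval 54.1 to 59.5) were listed in cytosol, and the same 740 were 14.5% of the 5105 cytosolic entries. Intervals cover counting error only. By host gene the catalogues were closer: 718 of the 969 nuclear hosts (74.1%) also had a cytosolic entry, which is 29.3% of the 2450 cytosolic hosts. Among nuclear entries that both circRNA callers listed, 77.4% (328 of 424) stood in the cytosol table. The hosts with most nuclear entries were MAD1L1, a spindle checkpoint protein, with 9, the tubulin folding cofactor TBCD with 8, and ANKRD36C with 7. In cytosol UBAP2, a ubiquitin-associated protein, led with 23 entries.

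Listing followed read number, and a circRNA with no entry in a table was unlisted, which is not a measured 0. Among the circRNAs that both callers listed in at least 1 of the 6 tables, cytosolic ones with a mean of 1 to below 5 reads stood in the nucleus table in 11.9% of cases (145 of 1215), and those with 100 reads or more in 97.1% (34 of 35). The exception among the 35 was a circRNA of KPNA5, an importin alpha. Nuclear entries were listed in cytosol in 66.2% of cases at 1 to below 5 reads and in 91.1% at 10 to below 20. If every cytosolic circRNA of that set had been present in the nucleus at the same share of circRNA reads, 1121 of the 2924 would have been expected to pass the listing rule of at least 1 read in each library at nuclear depth, while 854 were listed there, 610 of them with a cytosolic entry.

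**Figure D1:**
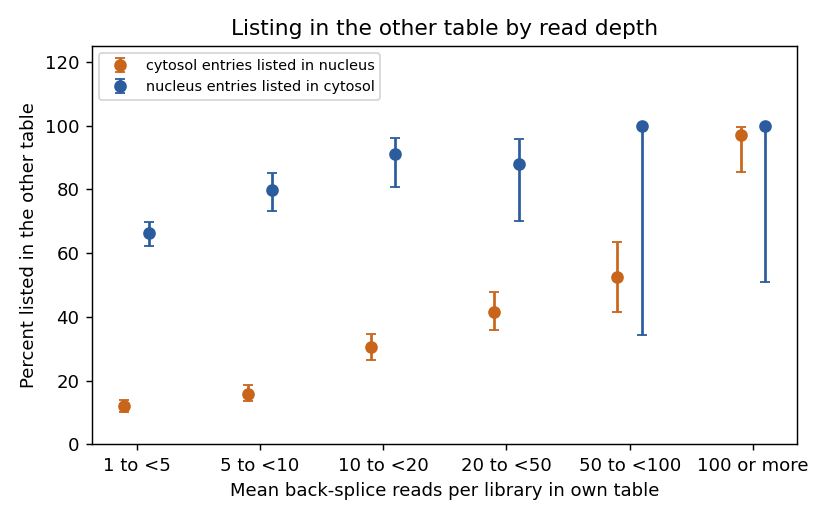
Percent of circRNAs of 1 table that the other table lists (y axis), by mean back-splice reads per library in their own table (x axis), with Wilson 95% intervals, for the 2924 cytosolic and 854 nuclear circRNAs that both callers listed in at least 1 table. Cytosolic circRNAs rise from 11.9% to 97.1%, and nuclear ones lie above them in each bin below 100 reads.

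The 562 circRNAs listed in the nucleus and not in cytosol were often seen elsewhere. Of these, 52.0% stood in the table of the whole cytoplasm, 50.7% in that of whole cells and 26.9% in the ribosome table, and 34.9% in no other table. Of the 4365 listed in cytosol and not in the nucleus, 36.7% stood in no other table. A start or an end was shared with some cytosolic entry in 22.1% of the 562.

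Single circRNAs were compared with edgeR's quasi-likelihood test over all 12 libraries, with 950 circRNAs tested and Benjamini-Hochberg adjustment over all of them. Of these 837 were listed in cytosol and 544 in the nucleus, 460 stood in both, and 29 in neither. The log2 fold changes (cytosol over nucleus) are on the TMM scale, relative to the remaining circRNA reads of a library and not to all RNA. At an adjusted p below 0.05, 616 of the 950 (64.8%) were called, 366 higher in cytosol (38.5%) and 250 higher in the nucleus (26.3%). Because an unlisted circRNA entered as 0, most calls toward cytosol rested on the absence of a nuclear entry: 302 of the 366 were unlisted in the nucleus, while 84 of the 250 were unlisted in cytosol. A call passing in the same direction with unlisted circRNAs at 0 and at 1 read, under TMM and under total circRNA reads, is called kept. The 1 read changes no cytosolic or nuclear count of a circRNA listed in both tables. Total circRNA reads moved their median log2 fold change by -0.43, toward the nucleus. The rule therefore hardly tests nuclear calls listed in both: 162 of 166 were kept, against 48 of 64 toward cytosol. Implied library totals are not among these fits. Kept calls numbered 156 toward cytosol (16.4%) and 246 toward the nucleus (25.9%), and their sum of 402 fell to 200 without nuclear library 1 and to 258 without nuclear library 2.

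Among the 460 circRNAs with a value in all 4 libraries, 64 were higher in cytosol (13.9%), 166 were higher in the nucleus (36.1%) and 230 did not pass. Their median log2 fold change was -0.75, beside 0.78 over all 950. Without nuclear library 1 the calls in this set fell from 230 to 150, and the split turned to 87 toward cytosol and 63 toward the nucleus. With single-caller entries added to the fit it was 132 against 122. Each of these fits tested 558 circRNAs listed in both tables rather than 460, and the cause of the change was not tested. The scale sets what the direction means. On the implied library totals the median over all tested circRNAs moved up by 2.18 on the log2 scale, and 618 of the 950 were then higher in cytosol against 102 in the nucleus. In RPTM, 294 of the 460 had both cytosolic libraries above both nuclear ones and 50 the reverse. Of the 166 called higher in the nucleus, 96 also had the higher mean RPTM there, while the other 70 had it in cytosol. Directions below are therefore relative to the other circRNAs unless RPTM is named.

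**Figure D2:**
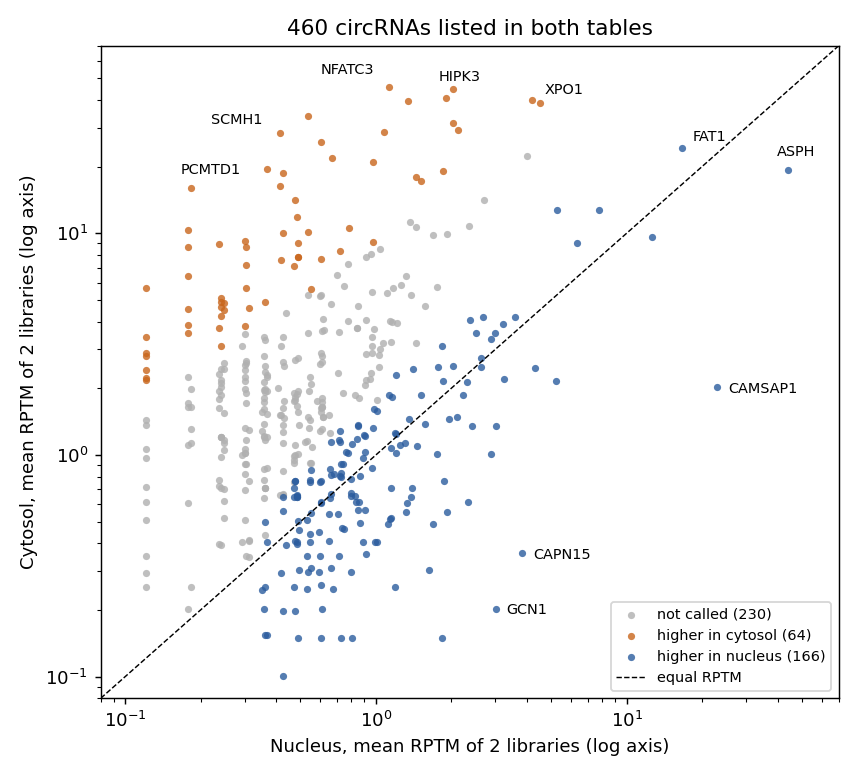
Mean RPTM of 2 libraries in the nucleus (x axis, log) and in cytosol (y axis, log) for the 460 circRNAs listed in both tables, coloured by call (64 higher in cytosol, 166 higher in nucleus, 230 not called). The dashed line marks equal RPTM, and 70 of the 166 nuclear calls lie above it because calls are relative to the other circRNAs.

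The largest shift toward cytosol among circRNAs listed in both tables was that of PCMTD1, named for its methyltransferase domain. It stood at 14.8 and 17.2 RPTM in cytosol and at 0.115 and 0.254 in the nucleus (log2 fold change 4.25 ± 0.55, SE, edgeR adjusted p = 1.37e-07). Its nuclear values rest on 1 and 2 reads. SCMH1, a Polycomb group protein, gave 31.6 and 24.9 RPTM in cytosol against 0.575 and 0.254 in the nucleus (log2 fold change 3.83 ± 0.50). FAM13B gave 42.6 and 25.1 against 0.690 and 0.381 (3.70 ± 0.41). In all 3 the fractions were far apart in every library.

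The chromatin remodeller CHD7 followed at 3.57 ± 0.56 on the log2 scale, with 12.3 and 8.35 RPTM in cytosol and 0.230 and 0.127 in the nucleus. A circRNA of MAN1A2, a Golgi mannosidase, reached 3.54 ± 0.51, with cytosolic values of 19.6 and 19.5 RPTM. The Polycomb protein PHC3 (3.32 ± 0.70), the nuclear import receptor TNPO3 (3.28 ± 0.77), the arginyl-tRNA synthetase RARS1 (3.23 ± 0.46) and the casein kinase CSNK1G3 (3.19 ± 0.40) had log2 fold changes of like size. NFATC3, a transcription factor, at 3.09 ± 0.36, FNDC3B, a membrane protein with fibronectin domains, at 3.03 ± 0.47, and the corepressor RERE at 2.97 ± 0.57 complete these 12. All 12 were kept calls, and each was also called on the implied library totals, at log2 fold changes from 5.13 (RERE) to 6.36 (PCMTD1).

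The most abundant cytosolic circRNAs listed in both tables were, apart from NFATC3 and FAM13B, not those with the largest changes. NFATC3 led with 52.9 and 38.6 RPTM in cytosol against 1.5 and 0.762 in the nucleus. UBXN7, an adaptor of the p97 ATPase, stood at 42.7 and 47.1 against 2.30 and 1.78, a log2 fold change of 2.27 ± 0.35. The circRNA of HIPK3, a kinase gene known for its single-exon circRNA, stood at 43.2 and 38.6 against 1.15 and 2.67 (2.23 ± 0.32). XPO1, the main nuclear export receptor, had 41.0 and 39.1 RPTM against 3.91 and 4.44 and a smaller relative change of 1.06 ± 0.28. The cleavage factor CPSF6 stood at 41.8 and 37.4 against 0.920 and 1.78 (2.68 ± 0.34). The nuclear speckle protein PNN (1.72 ± 0.34) and VAPA, a membrane tether of the endoplasmic reticulum (1.56 ± 0.30), rose less on the log2 scale. CDYL, a chromodomain protein, had 45.7 and 32.0 RPTM in cytosol and 3.57 and 5.46 in the nucleus, and its call (0.88 ± 0.28, edgeR adjusted p = 0.00615) was lost with total circRNA reads as the scale (adjusted p = 0.112). The 10 most abundant had mean cytosolic levels from 28.5 to 45.7 RPTM, while their nuclear levels ran from 0.536 to 4.51.

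Some abundant cytosolic circRNAs had no nuclear entry, and no fold change is given for them. The KPNA5 circRNA had 215 and 170 reads in cytosol, which is 19.5 ± 4.56 RPTM (SD, n = 2), and was called at an edgeR adjusted p of 9.38e-10. A MAN1A2 circRNA spanning 40140 bases had 112 and 82 reads. NFAT5, the osmotic stress transcription factor, had 61 and 127 reads, or 6.46 and 12.2 RPTM. PALS2, a polarity scaffold, gave 111 and 67 reads, and BPTF, the large subunit of the NURF remodeller, 100 and 76. All 5 were kept calls.

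The strongest shift toward the nucleus belonged to GCN1, an activator of the amino acid starvation kinase. Its circRNA stood at 3.11 and 2.92 RPTM in the nucleus and at 0.212 and 0.192 in cytosol, from 2 reads in each cytosolic library (log2 fold change -5.98 ± 0.56, edgeR adjusted p = 2.22e-10). CAMSAP1, a protein of microtubule minus ends, gave the best-measured case. It had 199 and 182 reads in the nuclear libraries and 20 in each cytosolic one, or 22.9 and 23.1 against 2.12 and 1.92 RPTM (-5.71 ± 0.32, edgeR adjusted p = 4.55e-16). BRIP1, a DNA repair helicase, stood at 1.5 and 2.16 RPTM in the nucleus against 0.106 and 0.192 in cytosol (-5.62 ± 0.60). A circRNA of CAPN15, a calpain, whose span also lies within LOC124900576, stood at 4.26 and 3.43 against 0.530 and 0.192 (-5.59 ± 0.50). Nuclear RPTM lay above the cytosolic values in every library for these 4.

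The next nuclear shifts were those of the proteasome subunit PSMB5 (-4.55 ± 0.54), the mitochondrial acyl-CoA synthetase ACSF3 (-4.42 ± 0.81) and the zinc finger protein ZNF516 (-4.36 ± 0.69). GMDS, an enzyme of GDP-fucose synthesis, followed at -4.13 ± 0.46 with 2.53 and 2.16 RPTM in the nucleus against 0.742 and 0.480 in cytosol. MTCL2 (-4.04 ± 0.71), the aldo-keto reductase AKR1A1 (-4.04 ± 0.91) and the GTPase-activating protein ARHGAP32 (-3.96 ± 0.50) were also among the 12 largest. The values of AKR1A1 rest on 3 and 4 nuclear reads and 1 in each cytosolic library. ACSF3 was listed by 1 caller in each table and by a different one, and its direction turned when the reads of the caller headed CIRC were used alone (log2 fold change 3.05). All 12 were kept calls, and on the implied library totals 11 of them still passed, the exception being AKR1A1 (adjusted p = 0.0624).

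**Figure D3:**
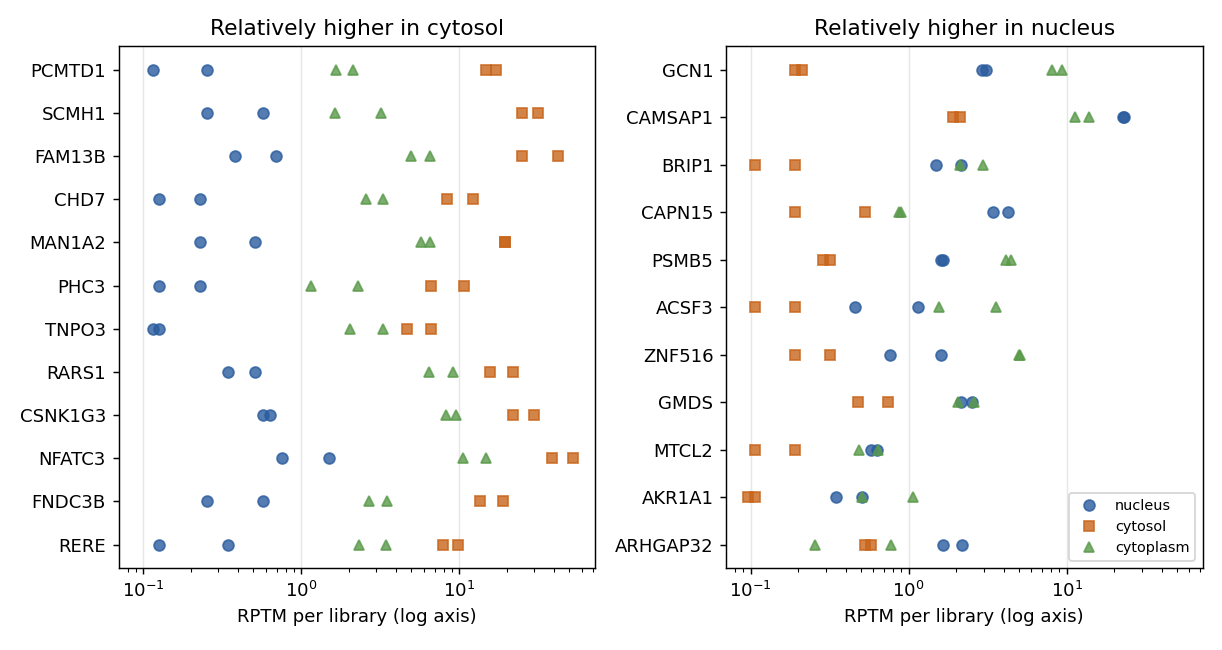
RPTM in each library (x axis, log) of nucleus (circles), cytosol (squares) and whole cytoplasm (triangles) for circRNAs among the 12 with the largest shift in each direction of those listed in both tables (12 on the left, 11 on the right). On the left the cytosolic squares lie to the right of both other fractions, and on the right, for hosts such as GCN1 and ZNF516, the cytoplasmic triangles lie to the right of the nuclear circles.

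By level, ASPH, an aspartate hydroxylase of the endoplasmic reticulum, led the nuclear catalogue. Its circRNA had 380 and 350 nuclear reads, or 43.7 and 44.4 RPTM, against 19.7 and 18.7 in cytosol (log2 fold change -3.40 ± 0.26, edgeR adjusted p = 2.44e-12). On the implied library totals the change was -1.20 and still passed (adjusted p = 0.00713). P4HB, a protein disulfide isomerase, stood at 4.37 and 6.09 RPTM in the nucleus against 2.75 and 1.54 in cytosol (-3.51 ± 0.33), and SDF4, a calcium-binding protein of the Golgi lumen, at 10.8 and 14.5 against 8.05 and 11.2 (-2.55 ± 0.31). The SDF4 libraries of the 2 fractions overlapped in RPTM, and its change of -0.39 on that scale did not pass. GUSBP1 is a pseudogene with near-identical copies, so its reads may belong to more than 1 locus. Its log2 fold change was -3.0 ± 0.33, and on the implied library totals it was -0.79 and did not pass (edgeR adjusted p = 0.0646).

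For other abundant nuclear circRNAs the call did not hold on the implied library totals. FAT1, an atypical cadherin, stood at 16.1 and 17.1 RPTM in the nucleus and at 29.1 and 19.5 in cytosol, and its log2 fold change of -1.68 ± 0.25 became 0.55 on the implied library totals, which did not pass (edgeR adjusted p = 0.255). The death receptor TNFRSF21 (-1.48 ± 0.29, then 0.71), the GTPase-activating protein ARHGAP5 (-1.69 ± 0.28, then 0.51) and NRIP1, a nuclear receptor corepressor (-0.89 ± 0.30, then 1.28), also changed sign, and of these only NRIP1 passed in the new direction (edgeR adjusted p = 0.00205, against 0.108 and 0.253). Without nuclear library 1 the calls of TNFRSF21 (edgeR adjusted p = 0.160) and ARHGAP5 (0.206) were lost, and that of NRIP1 was lost without any 1 of the 4 libraries (edgeR adjusted p from 0.0812 to 0.780). In RPTM all 4 had higher means in cytosol than in the nucleus.

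Among nuclear circRNAs unlisted in cytosol, CCDC134 led with 36 and 35 reads (4.29 ± 0.213 RPTM, SD, n = 2), followed by BUD23, a methyltransferase of ribosomal RNA, with 22 and 26, and BABAM1, a subunit of the BRCA1-A complex, with 19 and 21. AP3D1, an adaptor of vesicle coats, had 22 and 12, a circRNA lying within both DHPS and WDR83 had 11 in each library, and CTNNBIP1, an inhibitor of beta-catenin, had 13 and 8. Their spans were 1417 bases for CCDC134, 460 for BUD23, 415 for BABAM1, 988 for AP3D1, 470 for DHPS/WDR83 and 6803 for CTNNBIP1. All 6 were kept calls.

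The cytosol and nucleus tables differ in how they appear to have been written: the deposited averages carry up to 15 decimals in the ribosome, cytosol and exosome tables and up to 10 in the cell, nucleus and cytoplasm tables. The comparison crosses these groups, so fraction and table group cannot be told apart here. Values of whole cytoplasm, which belongs to the nuclear group of tables, are therefore set beside those of cytosol. They share the nuclear libraries, so the second contrast is no independent support. SCMH1 stood at 28.2 ± 4.73 RPTM in cytosol and at 2.42 ± 1.10 in cytoplasm (SD, n = 2), and its log2 fold change over the nucleus was 3.83 ± 0.50 in the first and -0.02 ± 0.68 in the second. For PCMTD1 the same values were 14.8 and 17.2 RPTM in cytosol and a mean of 1.90 ± 0.33 in cytoplasm, with log2 fold changes of 4.25 ± 0.55 and 0.90 ± 0.76. The HIPK3 circRNA was closer, at 40.9 ± 3.26 and 29.4 ± 1.31 RPTM and log2 fold changes of 2.23 ± 0.32 and 1.46 ± 0.33. The leading cytosolic hosts were thus higher in cytosol than in whole cytoplasm.

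Most circRNAs listed in both tables were lower in cytosol than in whole cytoplasm, nuclear calls among them. GCN1 stood at 8.73 ± 0.851 RPTM in cytoplasm, above its 3.01 ± 0.132 in the nucleus, and at 0.202 ± 0.014 in cytosol (SD, n = 2). Its log2 fold change over the nucleus was -5.98 ± 0.56 for cytosol and -0.97 ± 0.35 for cytoplasm. ASPH had 83.4 ± 1.84 RPTM in cytoplasm, 44.1 ± 0.508 in the nucleus and 19.2 ± 0.691 in cytosol. CAMSAP1 was highest in the nucleus, at 23.0 ± 0.150 RPTM against 12.6 ± 1.76 in cytoplasm and 2.02 ± 0.140 in cytosol. Of the 166 nuclear calls listed in both tables, 164 also had a cytoplasmic value: the nuclear mean exceeded the cytoplasmic one in 24 of these, and the cytosolic mean exceeded it in 16. Among those not called it did so in 61 of 228. Of the 64 cytosolic calls 63 had one, and cytosol exceeded cytoplasm in 54 of these. The calls used the cytosolic values, so these counts are a description. In bulk fractions, more molecules per cell and a larger share of the sequenced RNA cannot be told apart.

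Hosts were then grouped by function, and each group is described by its circRNAs listed in both tables, beside 13.9% toward cytosol and 36.1% toward the nucleus over all 460. Regulators of small GTPases, which switch these proteins on and off, lay toward the nucleus: of 20 circRNAs 12 were higher there and 1 in cytosol, with a median log2 fold change of -1.73. Beside ARHGAP32 they included ARHGAP5, ARHGAP12, ARHGAP26, the Arf exchange factor IQSEC1 (-3.32 ± 0.92) and the Rab exchange factor DENND1A. The host PSD3, an Arf exchange factor, had the cytosolic call (1.95 ± 0.80), with 1 read in each nuclear library. That call was lost under total circRNA reads (edgeR adjusted p = 0.104), with DESeq2 (adjusted p = 0.142) and without nuclear library 2 (log2 fold change 2.33). Another PSD3 circRNA, from 18867674 to 18872733, was called higher in the nucleus (-2.41 ± 0.77, edgeR adjusted p = 0.0071). Of 12 circRNAs from cytoskeletal, motor and centrosome genes 7 were higher in the nucleus and 1 in cytosol (median -1.71), and 2 of the 7 came from CAMSAP1. The centrosome proteins CEP192 (-3.16 ± 0.92) and PCM1 were among them. Of 7 circRNAs from lipid, sterol and hepatocyte metabolism 5 were higher in the nucleus and 1, from the UDP-glucose enzyme UGP2 (1.57 ± 0.44), in cytosol. The Wnt co-receptor LRP5 (-3.42 ± 0.64) had the largest change of the 5, and its call was lost without nuclear library 2 (edgeR adjusted p = 0.0766).

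The remaining groups are given in the same way, and no difference between a group and the 460 was tested. Of 26 circRNAs from chromatin and transcription regulators 8 were higher in cytosol and 3 in the nucleus (median 0.72), the former led by CHD7 and RERE and joined by the remodeller SMARCA5. With total circRNA reads as the scale these became 4 and 4. Of 19 from membrane and vesicle trafficking genes 5 were higher in cytosol and 1 in the nucleus (median 0.63), or 4 and 3 under total circRNA reads. The Golgi protein GOLPH3 led them, with 9.43 and 7.87 RPTM in cytosol against 0.230 and 0.381 in the nucleus (2.61 ± 0.52). RNA-binding and splicing factors had 6 of 25 higher in cytosol and 4 in the nucleus, or 6 and 7 under total circRNA reads, with RBM39, a splicing coactivator, at 20.7 and 23.2 RPTM against 0.575 and 0.762 (2.85 ± 0.40). The nuclear transport group of 9 had 4 toward cytosol, TNPO3 and XPO1 among them, and 2 toward the nucleus, of which RANGAP1, the activating protein of Ran, was the stronger (-3.67 ± 0.80). Protein kinases (3 toward cytosol and 7 toward the nucleus of 21) and ubiquitin enzymes (2 and 5 of 21) held HIPK3 and UBXN7 on the cytosolic side and STK39 on the nuclear side.

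Of 14 circRNAs from proteins of the endoplasmic reticulum and secretory lumen 4 were higher in cytosol, 3 of them from MAN1A2, and 4 in the nucleus, ASPH, P4HB and SDF4 among them. Translation factors had 1 of 4 in each direction, and the 2 circRNAs from secreted liver proteins, both from complement C3, did not pass. Genes long known for their circRNAs had 21 of 51 toward cytosol and 17 toward the nucleus (median 0.77). A short list of genes whose circRNAs have been reported as nuclear had 6 circRNAs listed in both tables, of which 5 were higher in cytosol and 1, from the prefoldin-like gene URI1, did not pass (log2 fold change -1.12 ± 0.72). Of those 5, 3 were from MAN1A2 and 1 from SMARCA5. Some hosts stood on more than 1 list, and on the implied library totals each of the 14 lists had more circRNAs higher in cytosol than in the nucleus.

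**Figure D4:**
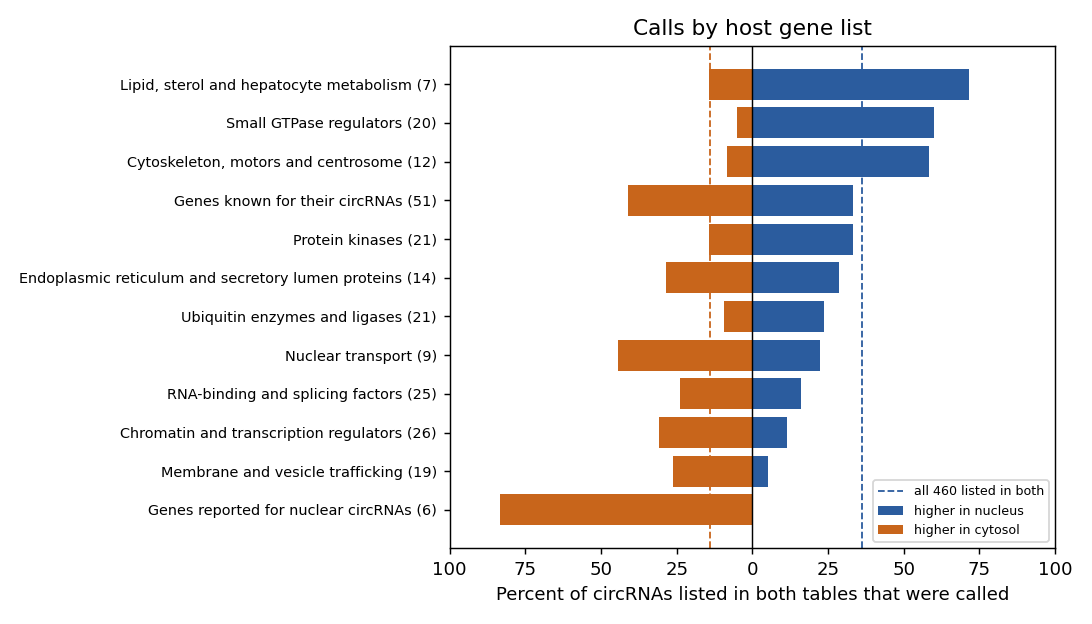
Percent of the circRNAs of each host gene list that were called higher in the nucleus (right) or in cytosol (left), among those listed in both tables, with their number in brackets, for lists with at least 6. Dashed lines give the 36.1% and 13.9% over all 460, and small GTPase regulators reach 60.0% toward the nucleus against 5.0% toward cytosol.

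CircRNAs of the same host gene did not all shift alike. Each circRNA's change was tested against that of its host as a whole, that circRNA included, for 400 circRNAs of 162 hosts (edgeR, diffSpliceDGE). The calls changed little with the scale between libraries (102 to 106 over the 4 scales). Differences from the host are in natural logs, so they are not on the scale of the log2 fold changes. The test called 60 relatively higher in cytosol (15.0%) and 46 in the nucleus (11.5%), in 69 hosts, 26 of which had both. Many rested on an unlisted partner: with unlisted circRNAs at 1 read the calls fell from 106 to 33, of which 9 were toward cytosol, and 32 of the 106 passed in the same direction in both fits. Without nuclear library 1 there were 31 calls and without nuclear library 2 there were 38. When only circRNAs listed in both tables were kept, 10 of the 32 still passed, in 7 hosts.

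FNDC3B gave the clearest pair. Its circRNA from 172112452 to 172133546 on chromosome 3 had 27 and 32 reads in the nucleus and 30 and 54 in cytosol, or 3.11 and 4.06 against 3.18 and 5.19 RPTM. The one from 172247533 to 172251541 had 5 and 2 nuclear reads and 179 and 141 cytosolic ones. The log2 fold changes of the pair were -1.93 ± 0.38 and 3.03 ± 0.47. In natural logs the first differed from its host as a whole by -1.59 ± 0.26 (edgeR adjusted p = 3.34e-06). The second differed by 1.85 ± 0.36 (edgeR adjusted p = 9.83e-05). Both passed whichever library was left out. In RPTM the first was about level between the fractions and the second far higher in cytosol.

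PTPRA, a receptor tyrosine phosphatase, showed the same kind of pair on chromosome 20. Its circRNA from 2964272 to 2965202 had 72 and 54 cytosolic and 2 and 1 nuclear reads (log2 fold change 2.88 ± 0.62), while the one from 2986765 to 2988474 had 6 and 4 against 7 and 2 (-2.28 ± 0.68). The second differed from its host as a whole by -2.29 ± 0.48 in natural logs (edgeR adjusted p = 0.000322). That difference passed in 3 of the 4 fits that left out 1 library. In RBM39 the circRNA from 35729312 to 35732135 differed from its host as a whole by 1.01 ± 0.32 in natural logs. Those ending at 35725155 and starting at 35714185 and 35716740 differed by -1.43 ± 0.35 and -1.55 ± 0.46. The first and the last of these 3 passed in 2 of the 4 fits that left out 1 library. In UBAP2 the circRNA from 33971651 to 33973237 had 16 and 10 cytosolic against 7 and 9 nuclear reads, and its difference of -1.95 ± 0.36 passed in all 4.

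In ARSB and PDE8A the circRNAs shared an end and differed in the other, while those named below for STK39 and XRN2 shared neither. Both tested ARSB circRNAs end at 78985558, and the gene encodes a lysosomal sulfatase. The one starting at 78955295 had 53 and 41 cytosolic against 6 and 5 nuclear reads. The one starting at 78964416 had 7 and 2 against 5 and 7. The latter differed from its host as a whole by -1.75 ± 0.43 in natural logs (edgeR adjusted p = 0.00269). That difference passed in 3 of 4 fits without 1 library. PDE8A, a phosphodiesterase, has a pair starting at 85113873. The shorter, of 1615 bases, had 16 and 13 nuclear and 11 and 9 cytosolic reads, and the longer, of 7142 bases, had 33 and 55 cytosolic reads and no nuclear entry. STK39, a kinase of ion transport, had 14 nuclear reads in each library and 2 and 8 cytosolic ones for its circRNA from 168063500 to 168075231, while that from 168161787 to 168182090 had 67 and 36 cytosolic reads and no nuclear entry. XRN2, a nuclear exonuclease, likewise had a circRNA of 42312 bases with 6 and 3 reads in the nucleus and none listed in cytosol, and another of 5165 bases with 62 and 85 reads in cytosol alone of the pair of tables. Of the 3 tested CAMSAP1 circRNAs, that from 135866456 to 135883078 was called higher in the nucleus in the first test (log2 fold change -2.18 ± 0.62), a call lost without nuclear library 1 (edgeR adjusted p = 0.175), nuclear library 2 (0.0825) or cytosolic library 2 (0.109). Its difference from the host as a whole was 1.87 ± 0.43 in natural logs (edgeR adjusted p = 0.00169). That difference passed in 2 of the 4 fits that left out 1 library. The most abundant of the 3 differed by -0.58 ± 0.20 (edgeR adjusted p = 0.0438), and that difference was lost without either nuclear library or cytosolic library 1 (edgeR adjusted p from 0.0681 to 0.306). That from 135850137 to 135866536 had 15 and 7 cytosolic reads and was unlisted in the nucleus.

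**Figure D5:**
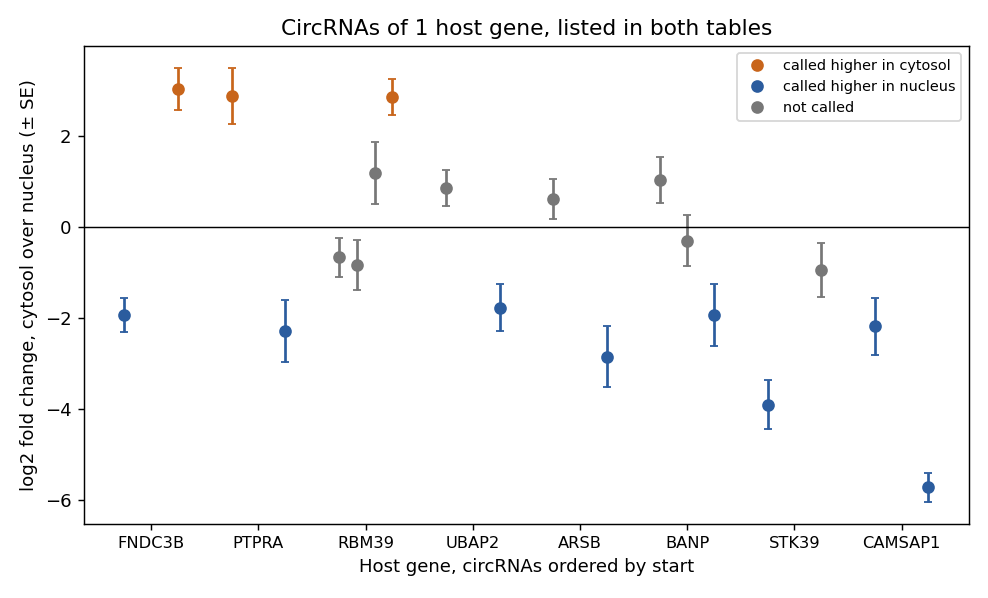
Log2 fold change of cytosol over nucleus with its SE (y axis) for circRNAs of 8 host genes that are listed in both tables, ordered by start within a host and coloured by call. FNDC3B and PTPRA each have circRNAs called in opposite directions, while both CAMSAP1 circRNAs lie below 0.

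The catalogues also differed in the genomic distance that a circRNA spanned, introns included. CircRNAs listed in the nucleus and not in cytosol spanned a median of 2674 bases (quartiles 863 and 8839), those in cytosol and not in the nucleus 6737 (2192 and 17661), and those in both 3866. Spans of up to 1 kb made up 27.8% of the first and 13.9% of the second. Among calls the same order held: 31.0% of the nuclear calls unlisted in cytosol spanned up to 1 kb, against 10.3% of the cytosolic calls unlisted in the nucleus. When each circRNA was weighted by its reads, the medians of the first and second set were nearly level at 3230 and 3312 bases. Single-caller entries were included there, among them the FGG entry described below. Over each whole table, limited to circRNAs that both callers listed in at least 1 table, the weighted medians were 3221 in the nucleus and 5041 in cytosol. Over the 460 listed in both tables, which share their libraries, log2 fold change and log10 span were nearly unrelated (Pearson r = 0.087, Spearman correlation 0.089).

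By chromosome, 57 of the 246 kept nuclear calls (23.2%) lay on chromosomes 16, 17, 19 and 22, against 17 of the 156 kept cytosolic calls (10.9%) and 140 of all 950 tested (14.7%). Chromosome 19 alone held 15 of the 246 and 1 of the 156, beside 28 of all 950 tested. No rule was set for choosing these 4 chromosomes, and no difference between chromosomes was tested. Among calls listed in both tables the shares on these 4 chromosomes were closer, at 18.7% of nuclear and 12.5% of cytosolic calls. Median host length there was nearly level, at 103089 bases for nuclear and 103350 for cytosolic calls, beside 106452 over all tested.

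Outside the tested set, single-caller entries took up much of both catalogues. The most abundant cytosolic entry of all lay in FGG, the fibrinogen gamma chain made by hepatocytes. It was listed by the caller headed Ciri alone, with 8236 and 9410 reads or 872 and 904 RPTM, which was 14.7% of the cytosolic reads, and no other table listed it. Short entries in CTTN (111 bases, 282 and 323 reads) and FN1 (136 bases, 285 and 272 reads) were likewise listed by Ciri in cytosol alone. In the nucleus the 2 leading single-caller entries lay on chromosome 16 outside any single gene. That from 21519828 to 21916024 had 292 and 209 nuclear reads against 21 and 24 in cytosol, and that from 28592263 to 28605933 had 231 and 214 against 106 and 84. Entries not inside 1 gene made up 13.6% of nuclear and 2.1% of cytosolic reads. A second caller did not list these entries, so none was tested.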

How the data were processed

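The authors deposited, per the file headers, whole-number counts of back-splice reads per circRNA, library and caller (headed Ciri and CIRC), with each caller's reads per 10000000 library reads (RPTM) and an average. The labels' protocols give ribosomal RNA removal and strand-specific libraries. The submitters' processing notes name hg38 as the build. Aligner and caller versions: not given in the sources used here. A caller's entry exists only where both libraries of a fraction have at least 1 read.

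The deposited RPTM is a mean over both libraries, so each library's total was recovered from it and RPTM per library recomputed. Counts were averaged over the callers with an entry and rounded. Hosts were RefSeq genes (GRCh38.p14) holding both ends, without use of strand, so an antisense neighbour can be named. This gave a host to 10950 of 11227 circRNAs, 178 of them with several. The 950 tested circRNAs are those of 4679 with an entry of both callers in at least 1 table that passed filterByExpr with a minimum count of 10. Tests used edgeR 4.0.16 in R 4.3.3 over 12 libraries. SE was taken as |log2 fold change| over the root of the F statistic. Named circRNAs were, among others, the 12 largest changes per direction listed in both tables, the 10 most abundant per fraction, the 6 with most reads unlisted in the other table, list leaders, and 6 hosts of opposite isoform calls. Not every circRNA so chosen is reported here, and POLD1, the acceptor sites and the further isoform hosts were chosen after their values were seen. Members and lists were chosen with earlier results of these data known. Alternatives included other scalings, filters, callers, DESeq2 1.42.0, left-out libraries and a replicate block. The tests were checked on simulated data.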

Additional observations from a re-analysis of the deposited data

Results flagged for a closer look

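The cytosol table listed 21 entries on the mitochondrial genome, with 26.7 and 32.6 RPTM in the 2 libraries. They were counted in the catalogues, overlaps, spans and summed reads above but were not described on their own. The nucleus, cell and cytoplasm tables listed 0, that of the ribosome held 1 and that of the exosome 2. The tables with such entries are those with up to 15 decimals, so the fraction and the way the tables were written cannot be told apart for this signal.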

How the results depend on the processing

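Of the 616 calls the number moved to 1359 (1001 toward cytosol) with no filter, 1529 (1277) when 5 reads were required in 2 libraries, 396 (279) with the 4 libraries alone and 209 (92) with circRNAs listed in both tables alone, an alternative chosen after seeing the data. It was 606 to 718 leaving out 1 library and 460 with DESeq2. The split of 366 toward cytosol and 250 toward the nucleus became 618 and 102 on implied library totals and 233 and 250 with unlisted circRNAs at 1 read. In the set listed in both tables, 230 calls (64 and 166) ran from 150 to 224 without 1 library, and split 122 and 135 for the caller headed Ciri, 108 and 130 for CIRC, 112 and 98 with 4 libraries, 115 and 106 with 5 reads in 2 libraries, 51 and 212 under total circRNA reads and 242 and 18 on implied totals. Isoform calls, 106, ran from 31 to 114 without 1 library, and were 33 with unlisted at 1 read, 50 with 4 libraries and 10 among those listed in both. Kept calls, 402, ran from 200 to 420 without 1 library and were 247 with at least 5 reads in 2 libraries. The total ratio of 6.72 became 4.89 in the tested set, 7.46 for entries of both callers and 6.11 without the 5 most abundant single-caller entries. The 56.8% of nuclear entries listed in cytosol became 77.4% for entries of both callers, 77.4% at 5 reads or more and 60.5% for Ciri. The ratio of nucleus-only to cytosol-only median span, 0.397, became 0.257 for both callers and 0.975 weighted by reads with single-caller entries included. The causes were not tested.

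Directions turned on implied totals for FAT1 (0.55), TNFRSF21 (0.71), ARHGAP5 (0.51), NRIP1 (1.28), CAMSAP1 from 135866456 (0.01), FNDC3B from 172112452 (0.23) and MTUS1 from 17743604 (0.16). ACSF3 turned under CIRC alone (3.05), and C3, not called in the reported fit (0.14), stood at -0.31 under total reads, 0.00 under CIRC and -0.18 to 1.16 without 1 library, and passed without cytosol library 1 and on implied totals (2.27). Of 91 values of named circRNAs, isoform differences included, 14 no longer passed without nuclear library 1 and 10 without nuclear library 2. Replicate numbers did not pair the libraries (correlation of replicate differences -0.089). The replicate block gave 617 calls, 232 in the set listed in both, 102 isoform calls and 391 kept, and the crossed block 622. Leaving out a library leaves a fraction with 1 sample, assumed to vary like the other groups. Nuclear depth, 7235 to 7727 reads, limits what can be listed there.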
